A study of Mus musculus with 15 samples.

Results

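Mouse embryonic fibroblasts were compared 24 h after the start of Neurog3 expression with control fibroblasts, in polyA RNA sequencing libraries. The comparison uses 6 of the 15 libraries of the series, 3 titled for day 1 of Ngn3 (the older name of Neurog3) and 3 titled as controls, chosen by those titles. Per the labels' protocols, Neurog3 was delivered by a lentivirus and switched on with doxycycline on day 0, and cells moved from DMEM with 10% serum to a neuronal medium on day 2, after the day 1 collection. The controls are fibroblasts labelled only as controls: whether they were infected, given doxycycline or kept for the same time is not given in the sources used here, so an effect of virus or drug cannot be told apart from one of Neurog3. The libraries of Neurog1 at day 1 and of Neurog3 at day 13, 3 of each and made from the same kind of cells, served as further points of reference. Strain, embryo age and the number of cultures behind each group are also not given in the sources used here, so the p-values rest on the spread from library to library, which may be technical.

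Neurog3 is a basic helix-loop-helix (bHLH) transcription factor of the proneural class, which binds E-box sequences in DNA together with a ubiquitous E protein. In the mouse pancreas and gut it starts the endocrine programme, acting above factors such as Neurod1, Insm1, Pax4, Nkx2-2 and Rfx6, while its relatives Neurog1 and Neurog2 start neuronal programmes in sensory ganglia and cortex. Proneural factors also switch on the Notch ligand Dll1, and Notch signalling in neighbouring cells raises repressors such as Hes1 that oppose them.

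Library totals were 16179235 to 17361026 counts in the Neurog3 libraries and 16778296 to 17859844 counts in the controls. Levels are given below as CPM, counts per 1000000 counts of the tested genes after scaling of the libraries to each other. Differences are log2 fold changes of Neurog3 over control, and a gene is called where its Benjamini-Hochberg adjusted p in edgeR's quasi-likelihood test is under 0.05. The standard errors (SE) beside them were worked back from that test, as the size of the log2 fold change over the square root of the F statistic. For genes with almost no control counts, the fold change and so this SE depend on the small prior count that edgeR adds. On the first principal component, which held 57.7% of the variance of the 6 libraries, the Neurog3 libraries stood between 51.4 and 76.8 and the controls between -62.4 and -58.2. The second component, with 20.1%, ran along the replicate letters, with library a at 42.1 and library b at -45.4 in Neurog3 cells, and 42.4 and -45.1 in controls. Of 10 fibroblast markers, 9 were at or above 10 CPM in every library, and the lowest value of the other, Lum, was 9.20 CPM, so both groups carried the labelled cell type's RNA. In such bulk libraries fewer cells of a type and less RNA per cell cannot be told apart.

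Neurog3 itself (chr10:62133090-62134763, mm10) had 20393, 52069 and 20429 counts in Neurog3 libraries a, b and c, against 0, 1 and 0 counts in control libraries a, b and c. It made up 0.126%, 0.3% and 0.124% of all counts in the 3 Neurog3 libraries. The ratio of its group levels was 92568, with a 95% counting interval of 16614 to 3656296 that covers counting error only, and the adjusted p was 6.84e-07. Library b thus held more than the other 2 together, and the delivered gene was high only in the 3 libraries labelled for it. Reads of the viral and of the endogenous gene could not be told apart. The strand setting of the counting is not given in the sources used here, and 16.3% of the exon bases of Neurog3 lie under exons of Fam241b on the other strand.

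At day 1, 1213 of 16872 tested genes (7.19%) rose in Neurog3 cells and 943 (5.59%) fell, 12.8% in either direction. At least 2-fold changes were found in 903 of the genes that rose and 755 of those that fell, and at least 8-fold changes in 299 and 154. The genes that rose were often near silent in controls: 353 of them (29.1%) averaged under 1 CPM in the controls, as did 19.6% of all tested genes, and 50 had no control count. Their median level was 27.6 CPM in Neurog3 cells and 8.87 CPM in controls. The genes that fell started higher, with a median of 5.80 CPM in Neurog3 cells and 19.6 CPM in controls, and 164 of them (17.4%) averaged at least 100 CPM in the controls, as did 13.9% of all tested genes. The calls were present in every one of the 6 fits that leave out 1 library for 674 of the genes that rose and 447 of those that fell. The libraries of the 2 groups did not overlap for 1196 of the genes that rose and 916 of those that fell. Over all 16872 tested genes this held, in either direction, for 4850. Library b of Neurog3, with the most Neurog3, was the highest of the 3 for 674 of the genes that rose (55.6%), for 272 of those that fell (28.8%) and for 39.7% of all tested genes. The part of the Neurog3 level in this pattern was not tested.

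**Figure D1:**
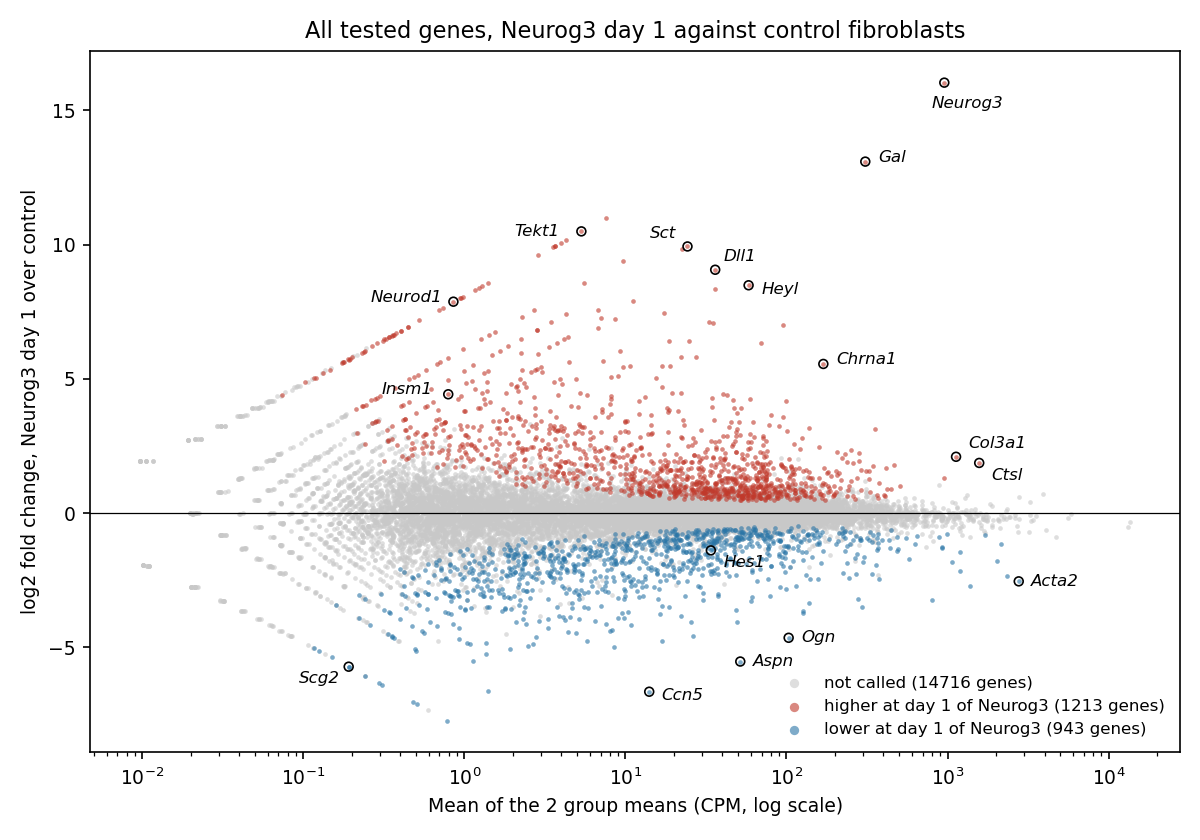
Each point is 1 of 16872 tested genes; the x axis is the mean of the Neurog3 and control group means in CPM on a log scale, and the y axis the log2 fold change of Neurog3 day 1 over control. Red points are the 1213 genes called higher and blue points the 943 called lower; the circled genes are described in the text, and those on the upper left diagonal have no control count, so their plotted fold change depends on the prior count.

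The gene list with the largest share called higher was the proneural cascade, a list of neuronal bHLH factors, their partners and early neuronal regulators. The lists were written with earlier results of these data known, so this rank is a description and not a test. Of its 31 tested members 14 rose (45.2%) and 0 fell, beside 7.19% and 5.59% of all tested genes. The median log2 fold change was 1.92, or 1.03 with members without counts in a group set to their bound. Over all tested genes it was 0.016. Neurod1, a bHLH factor below Neurog genes in neurons and islets (chr2:79452521-79456751), had 0.625, 2.67 and 1.83 CPM in the Neurog3 libraries against 0 counts in all 3 controls. That is at least 27.9-fold higher, against a floor of 3 counts over the 3 controls, with an adjusted p of 0.0012. Neurod2 (chr11:98325415-98329648), a later neuronal bHLH factor, had 1.39, 4.12 and 1.90 CPM in the Neurog3 libraries and 0 counts in the controls, at least 40.2-fold higher (adjusted p = 0.000305). Nhlh2, a bHLH factor of young neurons, had 2.15, 4.52 and 1.77 CPM in the Neurog3 libraries, again with 0 control counts, at least 45.5-fold higher (adjusted p = 0.000109). These bHLH genes stood at a few CPM in Neurog3 cells and had no reads in controls, with library b the highest for each and no overlap between groups.

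Nhlh1, the close relative of Nhlh2, had 0.555, 5.22 and 2.47 CPM in the Neurog3 libraries and 0, 0 and 0.181 CPM in the controls (adjusted p = 0.00209). Insm1, a zinc finger repressor shared by neuronal and endocrine precursors (chr2:146221921-146225020), had 1.46, 1.33 and 1.77 CPM in the Neurog3 libraries against 0.199, 0 and 0 CPM in the controls. Its ratio was 23.9 with a counting interval of 7.86 to 118.7 and an adjusted p of 6.85e-05. Insm1 was the most even of these genes across the Neurog3 libraries and did not follow the Neurog3 level.

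Several members of the list that are not bHLH factors rose as well. Cbfa2t3, a co-repressor of the ETO family, averaged 71.8 ± 21.6 CPM in Neurog3 cells and 0.207 ± 0.134 CPM in controls (SD, n = 3 each; log2 fold change 8.36, SE 0.49, adjusted p = 9.1e-08). Btbd17, a BTB-domain gene of neural precursors, had 39.7, 56.6 and 38.2 CPM in the Neurog3 libraries and 0, 0.0641 and 0.0603 CPM in the controls (adjusted p = 9.13e-08). Rcor2, a partner of the histone demethylase Lsd1, averaged 106 ± 33.8 CPM in Neurog3 cells and 13.7 ± 6.27 CPM in controls (log2 fold change 2.95, SE 0.34, adjusted p = 4.25e-05). Zbtb18 (1.92), Ebf3 (1.68) and Sox11 (1.02), which controls already expressed at 30.4 to 67.5 CPM, rose by smaller log2 fold changes. Myt1l and Cbfa2t2 were called too, but lost the call in 4 and 3 of the 6 fits without 1 library, with adjusted p up to 0.086 (without Neurog3 library b) and 0.0593 (without control library c).

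Other proneural genes stayed at or near 0. Neurod6 and Atoh1 had no count in either group. Neurog2 had 3 counts in the Neurog3 libraries, Neurod4 had 5 and Neurog1 had 3, against 0 in the controls for each. The depth of these libraries does not resolve a difference at such counts. Sox4, Sox12, Ebf1, Ebf2 and Gadd45g were expressed at 8.93 to 80.7 CPM in Neurog3 cells and 11.1 to 91.3 CPM in controls, with log2 fold changes between -0.49 and -0.17 and adjusted p of at least 0.151.

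Among Notch pathway genes, 6 of 21 tested members rose (28.6%) and 3 fell (14.3%), beside 7.19% and 5.59% of all tested genes. The ligand Dll1 (chr17:15367354-15376872) had 86.4, 65.1 and 64.7 CPM in the Neurog3 libraries and 0.199, 0.192 and 0 CPM in the controls, a log2 fold change of 9.06 (SE 0.42, adjusted p = 8.07e-09). The ligand Jag2 had 20.97, 21.98 and 19.55 CPM in the Neurog3 libraries and 0.596, 0.256 and 0.543 CPM in the controls (log2 fold change 5.46, SE 0.42, adjusted p = 9.9e-07). Both ligands were thus close to equal in the 3 Neurog3 libraries, without following the Neurog3 level. The receptors Notch1 and Notch2 averaged 48.3 ± 20.8 and 103 ± 23.1 CPM in Neurog3 cells, against 11.6 ± 1.86 and 28.5 ± 0.663 CPM in controls (log2 fold changes 2.06 and 1.86, adjusted p = 0.0051 and 0.00174). The ligands Dll3 and Dll4 had 8 counts each in the Neurog3 libraries and 4 each in the controls. Dlk2, a Delta-like protein without the receptor-activating domain, fell to 1.85 ± 0.757 CPM in Neurog3 cells, against 7.75 ± 2.37 CPM in controls (adjusted p = 0.00565). Lfng and Numbl were called higher, and Dlk1 and Maml2 lower, but each call was lost in 3 to 5 of the 6 fits without 1 library. The adjusted p reached 0.0774 for Lfng without control library b, 0.23 for Numbl and 0.12 for Dlk1 without Neurog3 library b, and 0.111 for Maml2 without control library a.

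Of 8 tested Hes and Hey repressors 2 rose (25%) and 1 fell (12.5%), beside 7.19% and 5.59% of all tested genes. Heyl (chr4:123233556-123249875) had 76.6, 185 and 86.5 CPM in the Neurog3 libraries and 0.0662, 0.512 and 0.362 CPM in the controls (log2 fold change 8.48, SE 0.60, adjusted p = 5.52e-07), with the highest value in library b. Hes6, which inhibits Hes1 and is itself induced by proneural factors, averaged 99.3 ± 48.1 CPM in Neurog3 cells and 18.6 ± 9.56 CPM in controls (log2 fold change 2.42, SE 0.40, adjusted p = 0.000715). Hes1 (chr16:30064384-30067796), the repressor that Notch raises, had 25.4, 11.1 and 19.9 CPM in the Neurog3 libraries and 42.8, 49.6 and 54.6 CPM in the controls (log2 fold change -1.39, SE 0.39, adjusted p = 0.0264). The groups did not overlap, and Hes1 was lowest in library b. Its call was lost in 4 of the 6 fits without 1 library, with adjusted p of 0.0642 to 0.108, the highest without Neurog3 library b. Hes5 had no count in either group, and Hey1, at 2.23 ± 0.0389 CPM in Neurog3 cells and 2.11 ± 0.943 CPM in controls, was not called (adjusted p = 0.937).

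Of 7 E proteins and Id proteins, the partners and inhibitors of bHLH factors, 2 rose (28.6%) and 1 fell (14.3%). Of all tested genes 7.19% rose and 5.59% fell. The inhibitors Id1 and Id2, which bind E proteins and keep them from DNA, averaged 378 ± 72.4 and 449 ± 142 CPM in Neurog3 cells, against 99.8 ± 41.6 and 115 ± 30.8 CPM in controls (log2 fold changes 1.92 and 1.96, adjusted p = 0.000956 and 0.000163). Id4 fell to 3.08 ± 1.57 CPM in Neurog3 cells, against 19.8 ± 8.67 CPM in controls (log2 fold change -2.69, adjusted p = 0.00126). Id3 and the E proteins Tcf3, Tcf4 and Tcf12, all above 118 CPM on average in either group, were not called, with log2 fold changes of -0.28 to 0.35.

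E-box motifs were counted in the RefSeq promoter windows (GRCm38.p6) that reach from 250 bases before to 50 bases after a transcription start. The first motif was CAGATG, which reads as CATCTG when taken from the opposite strand. The second was CAGCTG and the third was CATATG, both of which read alike on either strand. All are forms of the general E-box CANNTG, and both strands were searched. Windows were found for 891 of the genes that rose and 700 of those that fell. CAGATG was present in 16.1% of the windows of genes that rose, 13.2% of those of genes that fell, 11.6% of those of tested genes without a call and 17.2% of all windows in the table. The shares for CAGCTG were 20.4%, 17.7%, 15.5% and 16.3% in the same order, and those for CATATG were 2.61%, 2.11%, 1.75% and 3.91%. These shares are descriptions without a test. The windows of 5 genes that rose by large factors are printed 5′ to 3′ on the gene's strand, the minus strand for each, to show how differently they are built; capitals mark the 3 motifs.
Dll1 (chr17:15376883-15377182): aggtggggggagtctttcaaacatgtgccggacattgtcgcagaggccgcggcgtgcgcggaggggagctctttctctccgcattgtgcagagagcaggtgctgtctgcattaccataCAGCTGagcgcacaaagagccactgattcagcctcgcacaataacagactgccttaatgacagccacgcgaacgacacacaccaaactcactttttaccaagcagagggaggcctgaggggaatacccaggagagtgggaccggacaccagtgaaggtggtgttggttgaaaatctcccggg
Neurod2 (chr11:98329596-98329895): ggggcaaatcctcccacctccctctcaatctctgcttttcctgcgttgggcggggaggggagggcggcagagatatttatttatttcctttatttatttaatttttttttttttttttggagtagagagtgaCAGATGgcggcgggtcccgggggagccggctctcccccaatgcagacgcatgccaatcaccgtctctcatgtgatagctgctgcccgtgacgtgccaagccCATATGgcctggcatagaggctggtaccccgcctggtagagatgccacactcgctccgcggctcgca
Sct (chr7:141279084-141279383): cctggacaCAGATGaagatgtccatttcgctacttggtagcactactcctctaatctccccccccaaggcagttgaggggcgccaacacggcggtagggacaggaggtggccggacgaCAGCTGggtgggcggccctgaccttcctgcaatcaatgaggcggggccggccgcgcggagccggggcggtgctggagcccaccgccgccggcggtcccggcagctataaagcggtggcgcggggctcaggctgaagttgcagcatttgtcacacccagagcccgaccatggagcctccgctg
Tekt1 (chr11:72361247-72361546): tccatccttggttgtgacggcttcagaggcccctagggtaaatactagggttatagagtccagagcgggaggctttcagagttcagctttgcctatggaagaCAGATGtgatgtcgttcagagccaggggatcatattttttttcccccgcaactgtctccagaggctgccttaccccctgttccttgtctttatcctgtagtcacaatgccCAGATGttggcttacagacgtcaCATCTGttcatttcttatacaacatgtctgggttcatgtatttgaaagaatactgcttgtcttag
Gal (chr19:3414495-3414794): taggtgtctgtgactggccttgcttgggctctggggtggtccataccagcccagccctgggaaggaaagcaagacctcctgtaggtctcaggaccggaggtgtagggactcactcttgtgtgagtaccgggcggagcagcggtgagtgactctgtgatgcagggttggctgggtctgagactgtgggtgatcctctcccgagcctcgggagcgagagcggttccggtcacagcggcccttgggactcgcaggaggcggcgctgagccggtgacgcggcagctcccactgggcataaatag
The Dll1 window, at 1 of 2 starts of that gene in the table, held 1 CAGCTG, and the other start held none of the 3 motifs. The Neurod2 window held 1 CAGATG and 1 CATATG. The Sct window held 1 CAGATG and 1 CAGCTG. The Tekt1 window, at 1 of 2 starts of that gene in the table, held 3 CAGATG motifs, and its other start likewise none of the 3 motifs. The Gal window held no CANNTG at all, although Gal averaged 617 CPM in Neurog3 cells. A motif is a match of letters and not a shown binding site, and these letters may lie outside the window.

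Few transcription factors of endocrine cells were called, but only 7.19% of all tested genes rose and 5.59% fell. The 1 call among the 16 tested factors below does not resolve a difference from these shares. Of 31 endocrine factors that are not also in the proneural list (Neurog3 left out), 16 could be tested, 1 rose and 0 fell, with a median log2 fold change of 0.13. Another 11 had at most 3 counts in each group. Of the 29 proneural genes outside the endocrine list, with Neurog1 left out, 25 could be tested and 12 rose, with a median of 1.68 (0.96 with members without counts at their bound). Both lists were written with earlier results of these data known, so the contrast between them is a description and not a test. Of the 5 genes in both lists 2 rose, Insm1 and Neurod1. Pax4, Rfx6, Fev, Mnx1, Pdx1 and Hnf4a had 0 counts in all 6 libraries. Nkx2-2 had 2 counts in each Neurog3 library and 0 in the controls, too few for the test. Pax6 had 9 counts in the Neurog3 libraries and 8 in the controls, and Nkx6-1 had 12 and 15 counts. Isl1, a factor of islets and sensory neurons, had 29, 30 and 33 counts in the Neurog3 libraries and 73, 41 and 56 counts in the controls, and was not called (log2 fold change -0.89, SE 0.41, adjusted p = 0.177).

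The only factor of this endocrine set to be called was Bhlha15, a bHLH factor of secretory cells. It had 0.347, 0.696 and 0.443 CPM in the Neurog3 libraries and 0, 0 and 0.121 CPM in the controls (adjusted p = 0.0151), and lost the call in 3 of the 6 fits without 1 library, with an adjusted p of 0.0539 to 0.0627 without control library a or b or Neurog3 library b. Rfx3 (23.0 ± 0.909 CPM in Neurog3 cells, 12.8 ± 5.09 CPM in controls), Etv1 (10.99 ± 0.593 and 5.97 ± 0.847 CPM) and Tox3 (2.62 ± 0.422 and 1.05 ± 0.602 CPM) were higher in every Neurog3 library but not called, with adjusted p of 0.116, 0.154 and 0.0912. Irx1 averaged 13.9 ± 9.44 CPM in Neurog3 cells and 40.0 ± 21.3 CPM in controls, with an adjusted p of 0.0551.

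Of the hormone genes of islets and gut, Gal and Sct rose. Of 18 hormone genes, Ins1, Ins2, Gcg, Sst, Ppy, Gast and Ucn3 had 0 counts in all 6 libraries, and 7 genes could be tested. Of these 7, 2 rose (28.6%) and 1 fell (14.3%), beside 7.19% and 5.59% of all tested genes. Calls in so few genes do not resolve a difference of the list from these shares. Gal (chr19:3409915-3414544), the galanin precursor, a peptide of neurons and some endocrine cells, had 747, 782 and 322 CPM in the Neurog3 libraries and 0.0662, 0 and 0.121 CPM in the controls. Its ratio was 9742 with a counting interval of 3333 to 47243 and an adjusted p of 3.87e-08. Gal was among the 6 called genes with the largest gain in mean CPM, although the controls held 3 counts of it in all. Sct (chr7:141278330-141279133), the gene of the gut hormone secretin, had 69.3, 55.6 and 20.6 CPM in the Neurog3 libraries and 0, 0.128 and 0 CPM in the controls, a ratio of 1137.5 with a counting interval of 314.5 to 9398.7 (adjusted p = 7.21e-06). For both peptides library c was the lowest of the Neurog3 libraries and library b did not stand out. Ghrl and Tph1 had 12 and 56 counts in the Neurog3 libraries and 31 and 121 counts in the controls, and were not called (adjusted p = 0.184 and 0.306). Tac1, the substance P precursor, averaged 1.15 ± 1.16 CPM in Neurog3 cells and 6.08 ± 0.614 CPM in controls (adjusted p = 0.0472), a call that was lost in 5 of the 6 fits without 1 library, with adjusted p up to 0.146 without Neurog3 library b.

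The list of endocrine secretion and glucose sensing had 27 tested genes. Of these 10 rose (37%) and 3 fell (11.1%), beside 7.19% and 5.59% of all tested genes. The 10 include genes of other functions, the transcriptional repressor Gfi1 and the cell cycle inhibitor Cdkn1a. The calls of 7 of the 10 were present in every fit without 1 library. Gfi1, a zinc finger repressor of secretory and sensory cells, had 16.0, 5.68 and 11.3 CPM in the Neurog3 libraries and 0.0662, 0 and 0 CPM in the controls (ratio 505, counting interval 90.3 to 19995, adjusted p = 4.21e-06). Syt7, a calcium sensor of exocytosis, averaged 9.96 ± 4.05 CPM in Neurog3 cells and 0.440 ± 0.237 CPM in controls (log2 fold change 4.47, SE 0.56, adjusted p = 7.39e-05). Ptprn, a dense-core vesicle protein that controls already expressed, averaged 144 ± 32.9 CPM in Neurog3 cells and 42.7 ± 10.4 CPM in controls (log2 fold change 1.75, SE 0.30, adjusted p = 0.00107). The other rises were at low levels or close to the threshold. Pcsk2, a prohormone convertase, had 63 counts in the Neurog3 libraries and 1 in the controls (adjusted p = 0.00118). Abcc8, the sulfonylurea receptor, had 34 and 0 counts (at least 11.3-fold higher, adjusted p = 0.00173), and the GLP-1 receptor gene Glp1r had 58 and 2 counts (adjusted p = 0.00178). Ptprn2, at 53 and 3 counts, rose as well (adjusted p = 0.00445), while Sytl4, Aplp1 and Cdkn1a lost their calls in 4, 3 and 5 of the 6 fits without 1 library, with adjusted p up to 0.211, 0.123 and 0.162 without Neurog3 library b.

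Several classic genes of the secretory granule and beta cell were at or near 0 in both groups. Chga had 2 counts in the Neurog3 libraries and 0 in the controls, Chgb 6 and 3 counts, Scg3 2 and 0 counts, and Pcsk1 5 and 5 counts. Slc2a2, Kcnj11 and Ffar1 had 0 counts in all 6 libraries. Cpe and Pam, which process peptides and which fibroblasts express, averaged 225 ± 28.1 and 78.9 ± 22.9 CPM in Neurog3 cells and 249 ± 69.9 and 98.9 ± 29.5 CPM in controls, and were not called (adjusted p = 0.768 and 0.605). Scg2, a granin, had 0 counts in the Neurog3 libraries and 4, 10 and 4 counts in the controls, at least 6.02-fold lower (adjusted p = 0.00885). Rab27b and Cacna1c were called lower as well, but Rab27b lost the call in 5 of the 6 fits without 1 library (adjusted p up to 0.109, without Neurog3 library b) and Cacna1c lost it without Neurog3 library a (0.0566).

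**Figure D2:**
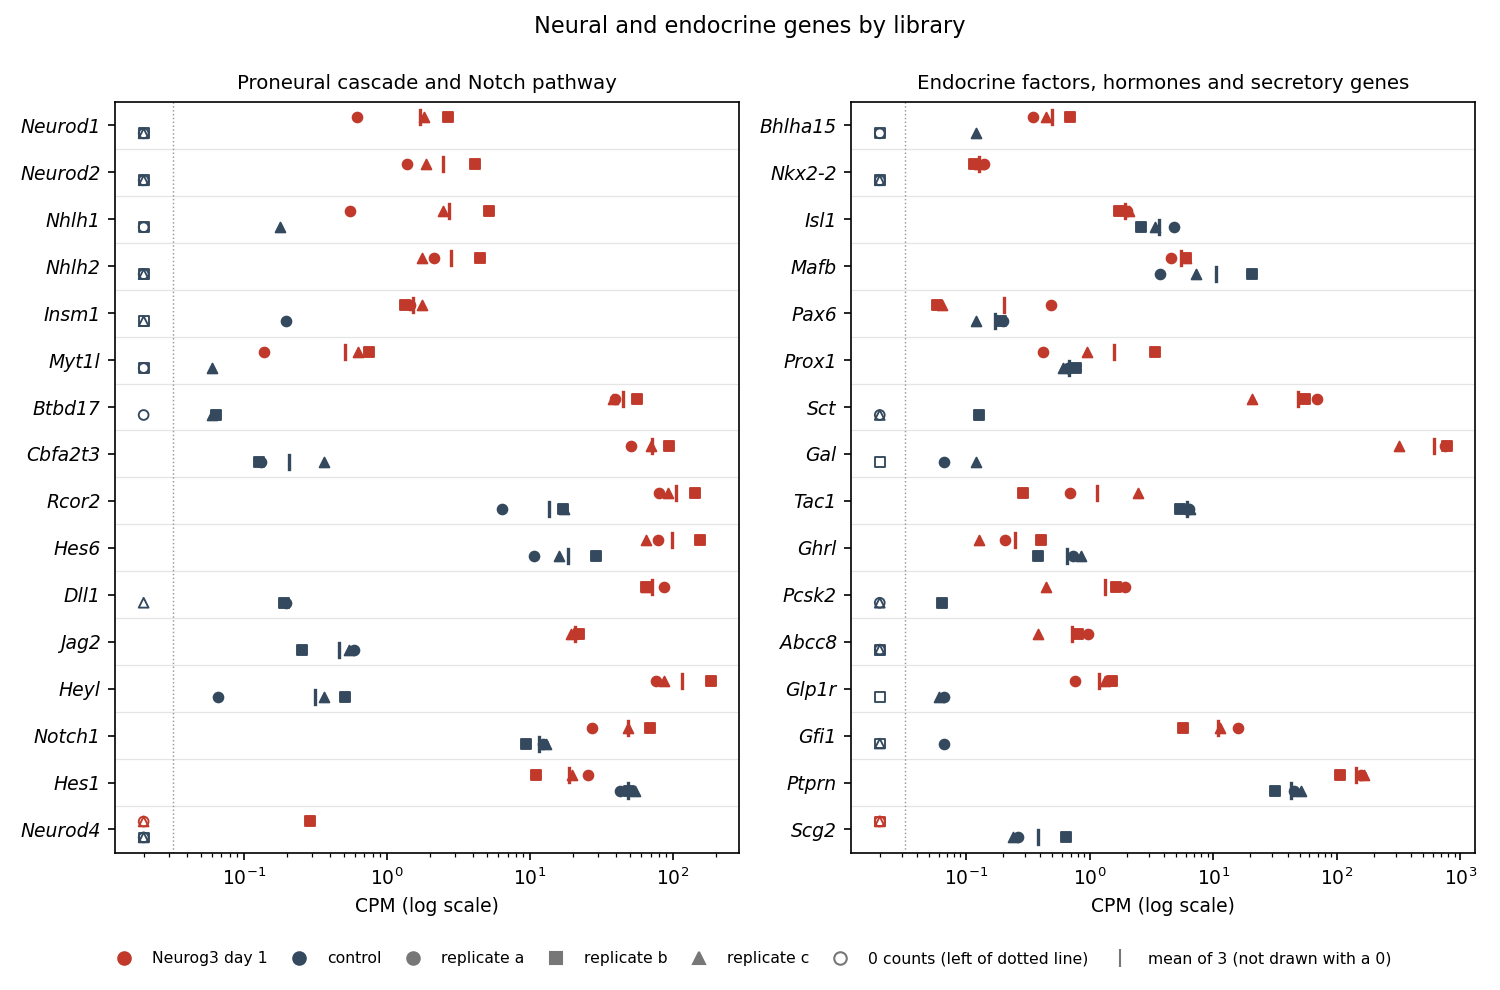
Levels in CPM on a log scale for 16 neural and Notch genes and 16 endocrine genes, with the Neurog3 libraries in red above the controls in dark blue; marker shapes give the replicate letter, open symbols left of the dotted line are libraries with 0 counts, and bars are means of 3, not drawn where a library has 0 counts. All genes of the left panel but Hes1 and Neurod4 lie right of their controls. Hes1, Isl1, Tac1 and Scg2 are among the genes that lie left of theirs. Of the endocrine genes Sct, Gal, Gfi1 and Ptprn reach more than 5 CPM in every Neurog3 library.

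Over all lists of neural genes that are not in an endocrine list, 24 of 142 tested members rose (12 of them in the proneural cascade) and 12 fell, with a median log2 fold change of 0.03. Over the endocrine lists, with Neurog3 and shared genes left out, 12 of 43 tested members rose and 3 fell, beside 7.19% and 5.59% of all tested genes. The 12 include Gfi1 and Cdkn1a, and the median was 0.80, or 0.38 with members without counts set to their bound. These lists differ in size, and in how many members the test could reach: 31 of the 76 endocrine genes and 29 of the 168 neural genes had at most 3 counts in each group.

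Beyond the cascade, 12 of these neural genes rose and 12 fell. Their base is the 142 tested neural genes without the members of the cascade, which are 25 genes besides Neurog1. Over all tested genes the shares were 7.19% higher and 5.59% lower, and no set test was run on these counts. In the list of synapse and release genes 6 of 36 tested members rose (16.7%, beside 7.19% of all tested genes). In it 2 fell (5.56%, beside 5.59%). Sv2b, a synaptic vesicle protein, had 8.33, 22.4 and 12.3 CPM in the Neurog3 libraries and 0.397, 0.449 and 0 CPM in the controls (adjusted p = 5.87e-05). Slc17a7, the vesicular glutamate transporter VGLUT1, had 3.75, 11.5 and 4.68 CPM in the Neurog3 libraries and 0, 0 and 0.241 CPM in the controls (adjusted p = 0.000149). It was the only 1 of 13 tested transmitter genes to rise (7.69%, near the share of all tested genes), while 3 fell (23.1%). Both vesicle genes were highest in library b.

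Of 25 tested cytoskeletal genes of neurons 2 were called higher (8%) and 3 lower (12%), beside 7.19% and 5.59% of all tested genes. Map2, a dendritic microtubule protein, fell to 4.51, 2.61 and 3.29 CPM in the Neurog3 libraries, against 33.9, 10.9 and 11.5 CPM in the controls (log2 fold change -2.44, SE 0.45, adjusted p = 0.00187). Dclk1 fell to 17.8 ± 3.55 CPM in Neurog3 cells, against 59.2 ± 18.7 CPM in controls (log2 fold change -1.73, SE 0.30, adjusted p = 0.000994). Stmn2 was called lower but lost the call in 3 of the 6 fits without 1 library, with adjusted p up to 0.0695 without Neurog3 library b. The higher calls, Crmp1 and Dpysl4, were lost in 5 and 4 of those fits, with adjusted p up to 0.0869 without Neurog3 library c for Crmp1 and up to 0.214 without Neurog3 library b for Dpysl4. Among 15 tested progenitor and glial genes 0 rose and 1 fell (6.67%), which does not resolve a difference from the shares of all tested genes. The 1 was Slc1a3, a glial glutamate transporter that fell to 3.51 ± 1.17 CPM in Neurog3 cells, against 23.2 ± 8.01 CPM in controls (adjusted p = 2.5e-05).

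The 12 genes with the highest fold changes at 5 CPM or more were Neurog3, Gal, C1ql2, Tekt1, Tff3, Psg22, Hpca, Sct, Btbd17, Mmd2, Pex5l and Dll1. C1ql2, a secreted synaptic C1q-like protein, had 6.53, 29.8 and 8.92 CPM in the Neurog3 libraries and 0 counts in the controls, at least 249-fold higher (adjusted p = 0.000765). Tekt1, a tektin of ciliary microtubules, had 12.2, 11.7 and 8.10 CPM in the Neurog3 libraries and 0 counts in the controls, at least 168-fold higher (adjusted p = 5.52e-07). Tff3, a trefoil peptide of goblet cells, had 8.26, 13.7 and 3.61 CPM in the Neurog3 libraries, at least 137-fold higher than the controls at 0 counts (adjusted p = 9e-05). C1ql2 was more than 3 times as high in library b as in the others, while Tekt1 was nearly even.

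Hpca, the neuronal calcium sensor hippocalcin, had 3.47, 15.6 and 2.85 CPM in the Neurog3 libraries and 0 counts in the controls (at least 121-fold higher, adjusted p = 0.000667). Mmd2 and Pex5l averaged 5.76 ± 3.10 and 19.3 ± 4.05 CPM in Neurog3 cells, against 0 counts and 1 count in the controls (adjusted p = 1.21e-05 and 1.08e-06). Psg22, a pregnancy-specific glycoprotein, had 7.96 ± 3.24 CPM in Neurog3 cells and 0 control counts (adjusted p = 0.000139), but its family has near-identical copies among which the counting could have split reads. In all, 18 genes had 0 control counts and at least 10 counts in each Neurog3 library, among them the neuronal genes Kcnc4, a potassium channel subunit, Neurod2 and Nhlh2, and Tcf15, a bHLH factor of the somites. Tekt1 was the only 1 of 14 tested cilium genes to be called higher (7.14%), and 2 were called lower (14.3%). Of all tested genes 7.19% were called higher and 5.59% lower. Of 17 tested epithelial genes Tff3, Krt8, a keratin of simple epithelia, and Prom1, a protein of membrane protrusions, were called higher (17.6%) and 4 lower (23.5%). Prom1 lost its call without Neurog3 library b (adjusted p = 0.0642) or control library c (0.0582), and the 4 lower calls became 1 when either of these was left out and 2 without Neurog3 library c or control library a.

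Some abundant fibroblast genes rose too. Among called genes the largest gains in mean CPM, after that of Neurog3, were in Ctsl, Col3a1, Tubb6, Gal and Srxn1. Ctsl, a lysosomal protease, averaged 2470 ± 527 CPM in Neurog3 cells and 675 ± 171 CPM in controls (log2 fold change 1.87, SE 0.30, adjusted p = 0.000597), although 26.8% of its exon bases are shared with other genes. Col3a1, a fibrillar collagen, averaged 1832 ± 417 CPM in Neurog3 cells and 427 ± 124 CPM in controls (log2 fold change 2.10, SE 0.39, adjusted p = 0.00178). Srxn1, an antioxidant enzyme, had 915, 374 and 625 CPM in the Neurog3 libraries and 64.7, 67.0 and 85.1 CPM in the controls (log2 fold change 3.14, SE 0.32, adjusted p = 1.04e-05). Chrna1, the muscle nicotinic receptor subunit (chr2:73563215-73580338), had 530, 240 and 224 CPM in the Neurog3 libraries and 8.08, 7.82 and 5.25 CPM in the controls (log2 fold change 5.56, SE 0.70, adjusted p = 7.93e-05), highest in library a. Tubb6 lost its call in 5 of the 6 fits without 1 library, with adjusted p up to 0.21 without Neurog3 library a.

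Contractile genes fell as a group. Of 18 tested genes of smooth muscle and actomyosin 12 fell (66.7%) and 0 rose, with a median log2 fold change of -1.35. Among all tested genes 5.59% fell and 7.19% rose. The calls of 9 of the 12 were present in every fit without 1 library. The summed level of the list was 8372.5 to 10421 CPM in the Neurog3 libraries and 15566 to 23976 CPM in the controls. Acta2, smooth muscle actin (chr19:34241090-34255590), had 1186, 549 and 705 CPM in the Neurog3 libraries and 6135, 3342 and 4688 CPM in the controls (log2 fold change -2.54, SE 0.40, adjusted p = 0.000563), the largest loss in mean CPM of any called gene. Tagln, its companion in myofibroblasts, averaged 915 ± 269 CPM in Neurog3 cells and 3157 ± 619 CPM in controls (log2 fold change -1.79, SE 0.31, adjusted p = 0.00117), with 67.9% of its exon bases under exons of Pcsk7 and Gm48529 on the other strand. Tpm1 averaged 1348 ± 346 CPM in Neurog3 cells and 2961 ± 644 CPM in controls (log2 fold change -1.14, adjusted p = 0.0131) and lost the call without Neurog3 library b (0.067) or control library a (0.0545). The highly expressed Flna and Tpm4 were not called (adjusted p = 0.852 and 0.189).

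Matrix genes and mesenchymal factors fell more often than they rose. Of 36 matrix genes 12 were lower (33.3%) and 3 higher (8.33%), and of 28 mesenchymal factors 12 were lower (42.9%) and 2 higher (7.14%). Of all tested genes 5.59% were lower and 7.19% higher. Ogn, a small proteoglycan (chr13:49608046-49624501), fell to 5.48, 8.53 and 9.81 CPM in the Neurog3 libraries, against 131, 316 and 148 CPM in the controls (log2 fold change -4.64, SE 0.43, adjusted p = 4.92e-06). Aspn, a related proteoglycan, fell to 0.764, 1.97 and 3.80 CPM in the Neurog3 libraries, against 39.7, 179 and 85.0 CPM in the controls (log2 fold change -5.52, SE 0.70, adjusted p = 8.28e-05). Ccn5, a matricellular protein, fell to 0.139, 0.522 and 0.127 CPM in the Neurog3 libraries, against 10.7, 40.6 and 32.2 CPM in the controls (log2 fold change -6.65, SE 0.78, adjusted p = 4.37e-05). For each of these 3 genes the groups were far apart, and library b was the highest control. H19, a long non-coding RNA of growing embryonic tissue, had 904, 679 and 767 CPM in the Neurog3 libraries and 2249, 5738 and 3771 CPM in the controls (log2 fold change -2.32, SE 0.37, adjusted p = 0.000523). Of the 10 fibroblast markers, Pdgfra, Thy1 and Prrx1 fell, Col3a1 rose and 6 were not called; the Thy1 call was lost in 4 of the 6 fits without 1 library, with adjusted p of 0.0532 to 0.0804, the highest without Neurog3 library b.

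Prrx1, a homeobox factor of limb mesenchyme, averaged 256 ± 54.7 CPM in Neurog3 cells and 622 ± 68.3 CPM in controls (log2 fold change -1.28, SE 0.18, adjusted p = 0.000216). Postn, periostin, averaged 640 ± 138 CPM in Neurog3 cells and 1757 ± 1007 CPM in controls (log2 fold change -1.46, SE 0.32, adjusted p = 0.00668). Against this trend the basement membrane and matrix remodelling genes Loxl2 (467 ± 56.9 CPM in Neurog3 cells, 98.9 ± 28.3 CPM in controls) and Mmp2 (421 ± 99.6 and 83.0 ± 23.9 CPM) rose, as did the factor Zeb1 (243 ± 59.0 and 120 ± 12.4 CPM), with adjusted p of 7.93e-05, 0.00677 and 0.00703. The calls of 7 of the 12 lower matrix genes and 6 of the 12 lower mesenchymal factors were present in every fit without 1 library. Without Neurog3 library b 7 matrix genes and 6 mesenchymal factors were called lower, and without control library b 7 mesenchymal factors. Of 21 tested targets of YAP and SRF, which report on cell tension, 7 fell (33.3%) and 1 rose (4.76%). Of these targets 4 were lower without Neurog3 library b and 3 without control library a. Thbs1, 1 of these, averaged 367 ± 237 CPM in Neurog3 cells and 2408 ± 1946 CPM in controls, and lost the call without Neurog3 library b (adjusted p = 0.0509) or control library a (0.0723).

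**Figure D3:**
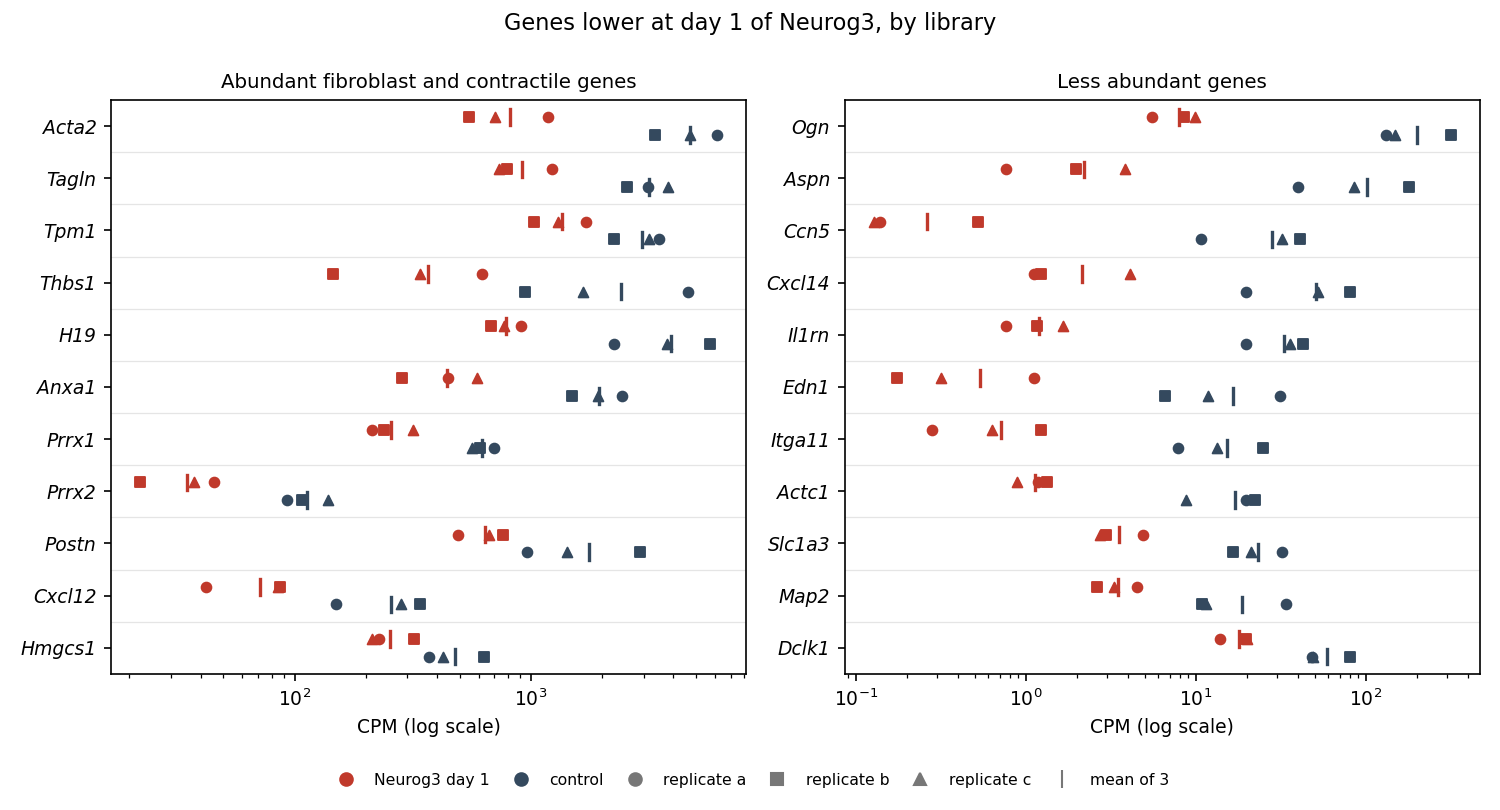
Levels in CPM on a log scale of 22 genes called lower at day 1 of Neurog3, with the 3 Neurog3 libraries in red above the 3 controls in dark blue and bars for the means. The groups do not overlap for any of the genes shown, and some were picked by a rule that required this. It holds for 916 of the 943 genes called lower and, in either direction, for 4850 of the 16872 tested genes. Acta2, for example, lies between 549 and 1186 CPM in Neurog3 cells and between 3342 and 6135 CPM in controls.

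Muscle genes and several genes of other cell types fell together with the fibroblast genes. Of 25 tested skeletal muscle genes 13 fell (52%, beside 5.59% of all tested genes) and 1, Chrna1, rose, with a median log2 fold change of -2.19. The calls of 8 of the 13 were present in every fit without 1 library. Without Neurog3 library c or control library b, 9 muscle genes were called lower. Myog, a bHLH factor of muscle, fell to 0.208, 0.174 and 0.316 CPM in the Neurog3 libraries, against 3.05, 6.09 and 2.71 CPM in the controls (adjusted p = 0.000796). Of 18 macrophage genes 17 had a lower mean in Neurog3 cells, 15 were lower in every library, and Aif1 had 0 counts there. Their summed level was 46.9, 41.9 and 42.3 CPM in the Neurog3 libraries and 178, 273 and 208 CPM in the controls. Over all 16872 tested genes the 2 groups did not overlap, in either direction, for 4850. By the test 2 of 15 macrophage genes fell, Lyz2 and C1qc, both losing the call in at least 3 of the 6 fits without 1 library (adjusted p up to 0.0961 and 0.0958, without Neurog3 library b), and Itgam rose, with 68.7% of its exon bases shared with Gm49368. The inflammatory genes Il1rn and Cxcl14 were among the 12 lowest fold changes: Il1rn had 0.764, 1.16 and 1.65 CPM in the Neurog3 libraries and 19.7, 42.7 and 35.8 CPM in the controls (log2 fold change -4.77, SE 0.60, adjusted p = 7.39e-05). The summed level of 15 endothelial genes was 63.0, 48.2 and 65.2 CPM in the Neurog3 libraries and 118, 71.4 and 73.5 CPM in the controls. On average 8 of the 15 were lower, about as many as not, and 3 were lower in every library. By the test 3 of 8 endothelial genes fell and 1 rose, and 0 of the 3 lower calls were present in every fit without 1 library. The part of fewer macrophages, muscle or endothelial cells in these falls was not tested.

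Lists of proliferation and stress genes held 1 or 2 calls each. The shares called higher were 3.57% for cell cycle, 4% for interferon and 11.1% for ATF4 and stress genes. Of all tested genes 7.19% rose and 5.59% fell, and lists with so few calls do not resolve a difference from these shares. Of 28 tested cell cycle genes 1 rose and 0 fell: E2f1, a factor of S-phase entry, averaged 145 ± 16.2 CPM in Neurog3 cells and 44.2 ± 7.38 CPM in controls (log2 fold change 1.72, SE 0.19, adjusted p = 2.41e-05). Of 25 tested interferon genes 1 rose and 0 fell, and of 18 ATF4 and stress genes 2 rose and 0 fell, 1 of them Vldlr, a lipoprotein and reelin receptor, which averaged 248 ± 145 CPM in Neurog3 cells and 27.8 ± 8.39 CPM in controls (adjusted p = 7.36e-05). Of 24 tested cholesterol synthesis genes 0 rose and 4 fell, with Sc5d the only 1 of these called in every fit without 1 library. The share of cholesterol synthesis genes called lower, 16.7%, is above the 5.59% of all tested genes but rests on 4 genes, and 1 was called without Neurog3 library a or c or control library b, 2 without control library c and 7 without control library a.

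**Figure D4:**
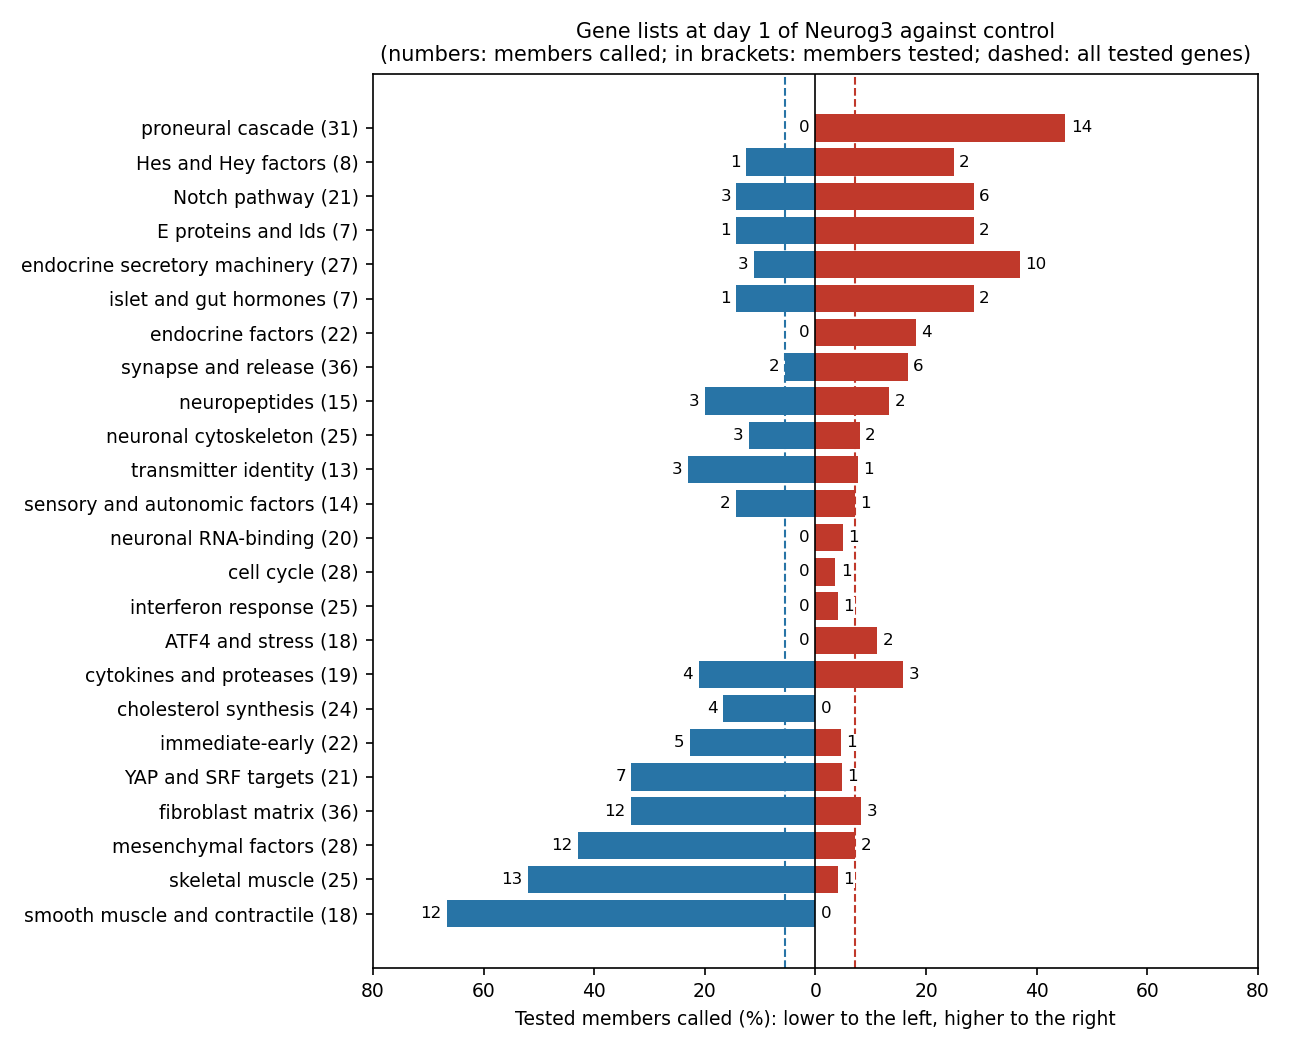
Bars give the percentage of tested members of 24 gene lists called higher (red, to the right) or lower (blue, to the left) at day 1 of Neurog3 against control, with the number called at the bar's end and the number tested in brackets; dashed lines mark 7.19% and 5.59% of all tested genes. The proneural cascade has the longest bar to the right (14 of 31) and the contractile list the longest to the left (12 of 18).

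Neurog3 was also set against Neurog1 at the same time. In edgeR's test 2 of 16872 genes were called (0.0119%), Neurog3 higher and Neurog1 lower (0.00593% each way), while 286 genes had an unadjusted p under 0.05, and DESeq2 called 4. Neurog1 had 1, 0 and 2 counts in the Neurog3 libraries and averaged 2327 CPM in the Neurog1 libraries. Of the endocrine genes, Sct averaged 48.5 ± 25.1 CPM with Neurog3 and 152 ± 61.4 CPM with Neurog1 (log2 fold change -1.65, SE 0.50, adjusted p = 1), and Gal 617 ± 256 CPM with Neurog3 and 409 ± 164 CPM with Neurog1 (log2 fold change 0.59, SE 0.37, adjusted p = 1). Dll1 differed by 0.43 (SE 0.25), Neurod1 by 0.30 (SE 0.56), Insm1 by 0.31 (SE 0.34) and Gfi1 by -0.02 (SE 0.43). C1ql2 differed by 2.63 (SE 0.88) and Neurod2 by 1.49 (SE 0.56), with an adjusted p of 1 for each. A p that misses the threshold does not show that the 2 factors act alike.

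Between day 1 and day 13 of Neurog3, 9410 of 16872 genes were called (55.8%), 4887 higher at day 13 (29%) and 4523 lower (26.8%). The medium also changed on day 2, so time with Neurog3 and medium cannot be told apart. The first proneural genes went on rising: Insm1 averaged 65.1 CPM at day 13 and 1.52 CPM at day 1 (adjusted p = 3.31e-08), and Nhlh1 averaged 214 CPM at day 13 and 2.75 CPM at day 1 (adjusted p = 1.36e-06). Neurod1 reached 20.6 CPM at day 13, against 1.71 CPM at day 1 (adjusted p = 9.66e-05), and Pcsk2 44.3 CPM at day 13, against 1.34 CPM at day 1 (adjusted p = 1.97e-06). Other strong day 1 genes were low again: Gal averaged 1.89 CPM at day 13 and 617 CPM at day 1 (log2 fold change -8.34, adjusted p = 4.44e-08), and Chrna1 2.01 CPM at day 13 and 332 CPM at day 1 (adjusted p = 2.72e-06). Sct rose further, to 179 CPM at day 13, against 48.5 CPM at day 1 (adjusted p = 0.00535).

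Genes that had fallen by day 1 did not all stay low. Ogn averaged 1305 CPM at day 13 and 7.94 CPM at day 1 (adjusted p = 5.63e-08), and Map2 76.8 CPM at day 13 and 3.47 CPM at day 1 (adjusted p = 3.28e-06). Acta2 fell further, to 181 CPM at day 13, against 813 CPM at day 1 (adjusted p = 0.000337). Neurog3 itself averaged 3860 CPM at day 13 and 1909 CPM at day 1 (log2 fold change 1.02, adjusted p = 0.14).

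**Figure D5:**
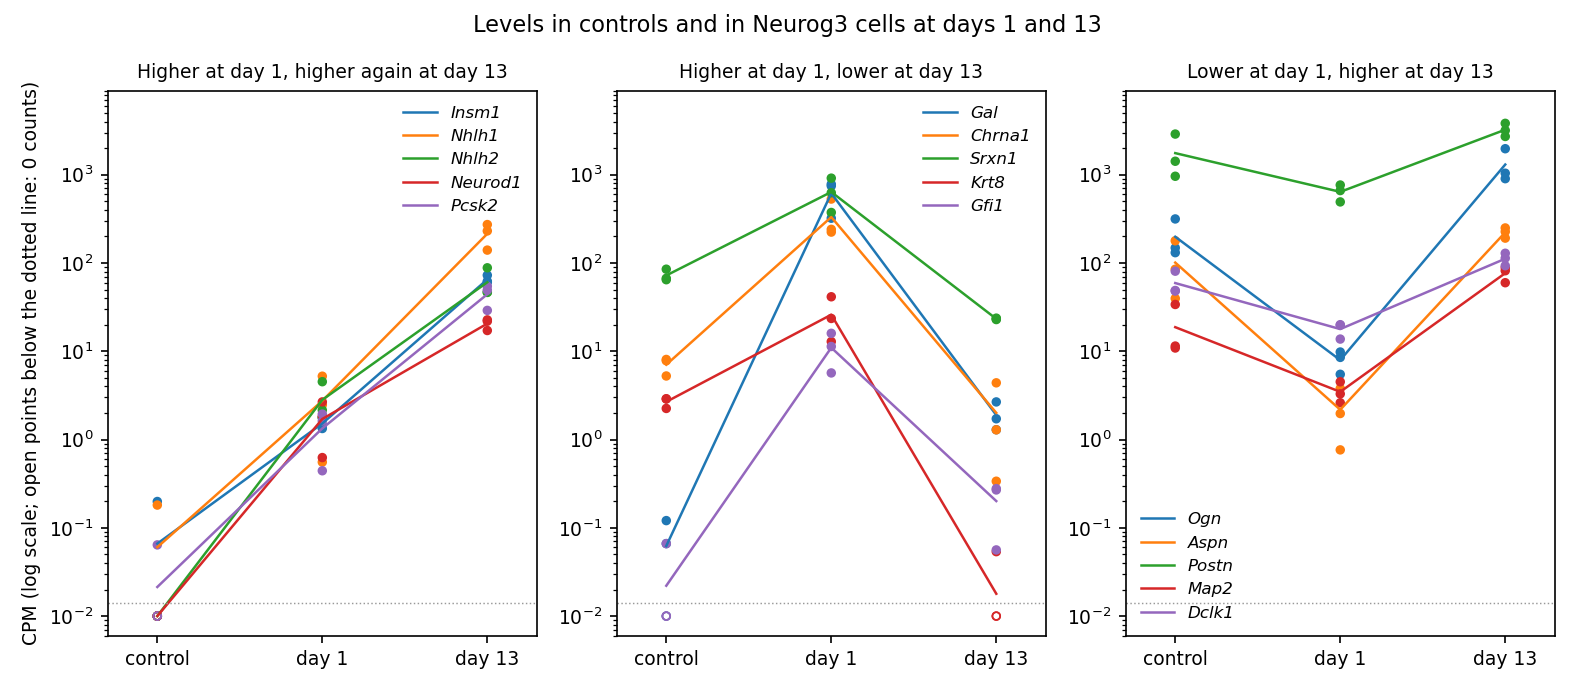
Points are the 3 libraries of each group and lines join the group means, in CPM on a log scale, for controls and for Neurog3 cells at day 1 and day 13; open points below the dotted line are libraries with 0 counts. The left panel holds genes that rose by day 1 and again by day 13, the middle panel genes high only at day 1 of these 3 points, such as Gal at 617 CPM, and the right panel genes low at day 1, such as Ogn at 7.94 CPM.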

How the data were processed

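The deposited table holds raw counts per gene, in 1 column for each of the 15 libraries, with no normalization by the authors. Per the submitters' processing notes, CASAVA, HISAT2, featureCounts and the mm10 build were used; their versions, the strand setting and any filter are unknown here. Replicates were not pooled. IDs without a symbol held 0.12% of the counts.

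All 15 libraries, 5 groups of 3, were fitted together with edgeR 4.0.16 (R 4.3.3, limma 3.58.1): filterByExpr, TMM factors, quasi-likelihood test, Benjamini-Hochberg adjustment over 16872 genes. Alternatives were DESeq2 1.42.0, other scalings, no filter, 2 groups only, a replicate block and leaving out each library. The test was tried on simulated counts with known changes.

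Named genes were all members of the proneural, endocrine, Notch, Hes and Id lists, from every other list its few most abundant members with and without a call, the 12 highest and 12 lowest fold changes at 5 CPM or more without overlap between groups (predicted genes left out), and the 6 largest differences in CPM each way. Genes outside it, among them Kcnc4, Tcf15, Sv2b, Myog, Pdgfra, Thy1 and Lum, were chosen after their values were seen. The samples and lists were chosen with earlier results of these data known. Replicate letters pair Neurog3 with Neurog1 day 1 libraries in the data (r of 0.454, 0.539 and 0.325 for deviations of same-lettered libraries from their group means). Some named-rule genes are not reported here.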

Additional observations from a re-analysis of the deposited data

How the results depend on the processing

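Against control, 1213 genes higher and 943 lower became 1470 and 1281 with DESeq2, 1311 and 834 with scaling by library totals, 1183 and 975 with DESeq2 size factors in edgeR, 1332 and 1173 without a filter, 996 and 972 with the 6 libraries alone, and 852 to 1085 and 640 to 825 without 1 library. With the replicate block the counts were 1562 and 1324. Same-lettered Neurog3 and control libraries had correlations of 0.259, 0.321 and 0.0564. The labels state no pairing, so the main fit did not take the letters as pairs, although libraries a and b deviated along their letters. With 1 of the 3 correlations near 0, these values do not settle whether the letters are pairs. Neurog3 library c correlated slightly more with control library a (0.0675) than with its own letter. Library c lay between a and b on the second component in both groups (12.66 and -6.65), so its low correlation says little about pairing. The main fit and the fits without 1 library have no term for the letters, so spread shared along them stays in their error. The block did not change the 2 calls against Neurog1, which became 4 with DESeq2 and 4 without a filter. The endocrine factors called lower, 0 in the report, were 1 with DESeq2, 1 without a filter, 1 with the replicate block and 0 to 1 without 1 library. The hormone genes called lower, 1 in the report, were 0 with scaling by library totals and 0 to 1 without 1 library. The secretory genes called lower, 3 in the report, were 1 to 3 without 1 library. Of the genes named, 9 changed sign when 1 library was left out, none of them called. Over those fits the log2 fold change ran from -0.35 to 0.07 for Cpe, -0.32 to 1.33 for Dll3, -0.33 to 0.11 for Ebf1, -0.52 to 0.01 for Ebf2, -0.37 to 0.22 for Flna, -0.25 to 0.31 for Hey1, -0.44 to 0.15 for Id3, -0.79 to 0.88 for Lum and -1.41 to 0.64 for Pax6. The cause was not tested. With 16179235 to 17859844 counts a library, genes of a few counts, among them 11 of 31 endocrine factors with at most 3 counts in each group, are not resolved.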

Other observations

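Several families of signalling genes, picked after their values were seen, changed in both directions. Of 12 tested Wnt ligand genes 5 rose and 3 fell, beside 7.19% and 5.59% of all tested genes. Wnt10a had 45.8, 33.2 and 31.8 CPM in the Neurog3 libraries and 0.265, 1.22 and 0.966 CPM in the controls (log2 fold change 5.48, SE 1.04, edgeR adjusted p = 0.00213). Wnt3 had 404 counts in the Neurog3 libraries and 2 in the controls, a ratio of 201 with a counting interval of 55.4 to 1667.9 (adjusted p = 3.9e-05). Wnt16, Wnt4 and Wnt2 fell by 4.36, 3.97 and 2.87 on the log2 scale. Of 12 tested R-spondins, Notum and Wnt antagonists 2 rose and 6 fell, with a median log2 fold change of -1.74. Rspo4 (13.4 CPM in Neurog3 cells, 0.110 CPM in controls) and Notum (43.2 CPM in Neurog3 cells, 0.741 CPM in controls) rose, while the related R-spondins Rspo2 (0.811 CPM in Neurog3 cells, 14.3 CPM in controls) and Rspo3 (1.82 CPM in Neurog3 cells, 16.2 CPM in controls) fell. The antagonists Sfrp1, Sfrp2, Sfrp4 and Dkk3 fell too, though Sfrp2 and Sfrp4 lost the call in 3 and 4 of the 6 fits without 1 library, with adjusted p up to 0.0985 (without control library b) and 0.102 (without Neurog3 library b). Notum shares 38.1% of its exon bases with other genes.

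Of 20 tested semaphorins, axon guidance proteins, 7 rose and 4 fell, beside 7.19% and 5.59% of all tested genes. Sema7a had 195, 198 and 170 CPM in the Neurog3 libraries and 1.85, 0.769 and 1.69 CPM in the controls (adjusted p = 1.56e-07), and Sema3f fell by 2.31 on the log2 scale (adjusted p = 0.000459). Gfra3, the artemin receptor subunit of sensory neurons, had 334 counts in the Neurog3 libraries and 2 in the controls (adjusted p = 0.0047). Of 36 tested Hox genes 0 rose and 9 fell, with a median log2 fold change of -0.68, beside 5.59% of all tested genes called lower. The 9 became 2 without Neurog3 library a and 4 without Neurog3 library b or control library b or c, and Hoxa10 and Hoxc10 were called in every fit without 1 library. Hoxa10 averaged 23.6 CPM in Neurog3 cells and 58.1 CPM in controls (adjusted p = 0.00165).

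In the reverse of the 18 genes without control counts, 3 genes had 0 counts in the Neurog3 libraries and at least 10 counts in each control. They were Chrdl1 (at least 24.4-fold lower, adjusted p = 0.00765), the macrophage chemokine Ccl3 (adjusted p = 0.0239, and up to 0.0688 without 1 library) and Clec12a, which was not called (adjusted p = 0.0681).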
